A study of Mus musculus with 3 samples.

Results

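Nr2f2 and the stretch of chromosome 7 around it were examined for Notch2 occupancy in the mouse embryonic kidney, as peaks between positions 77300000 and 79000000 of the mm9 build. This window of 1.7 Mb was chosen by its position around the gene and with its many shared peaks already known, so that its numbers of peaks are given as a description and without tests. It held 79 of the 28651 peaks of replicate 1 and 67 of the 12585 peaks of replicate 2, or 146 of 41236 in all. The study immunoprecipitated Notch2 from formaldehyde-crosslinked whole kidneys at stage E16.5, in 2 samples numbered by the labels, and sequenced the bound DNA (ChIP-seq). An input sample of the same tissue and stage is the third sample of the series and was not analysed here. The labels give no strain, genotype or treatment, and nothing in them ties the replicates to separate litters or pools, so that their difference may be technical. A whole kidney mixes epithelial, stromal and vascular cells, and a peak cannot be assigned to one of them.

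Nr2f2 encodes COUP-TFII, an orphan nuclear receptor that binds DNA and represses or activates genes in mesenchyme, veins and other embryonic tissues. In the developing kidney it is known from the metanephric mesenchyme and the stroma, and in blood vessels it is known for holding back Notch signalling in veins. Notch2 is a cell surface receptor whose intracellular part is cut free on ligand binding, enters the nucleus and acts with the DNA-binding protein RBPJ, often at enhancers far from the gene they serve. Nr2f2 lies on the minus strand at about 77.50 to 77.51 Mb, so that higher positions are upstream of it. That placement is rounded to 10 kb, and every distance below runs from it and carries the same rounding.

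The neighbours of Nr2f2 are known here by order only. In a RefSeq gene table of another build (GRCm38) the next named protein-coding gene on the upstream side is Mctp2. In between are 25 entries, of which 19 are long noncoding RNAs, 5 are pseudogenes and 1 is the protein-coding entry Gm44812. The nearest of them is the long noncoding RNA B130024G19Rik. On the downstream side the next named protein-coding gene is Arrdc4, after 16 entries that include 11 long noncoding RNAs and no protein-coding one. Which of these entries fall inside the window was not determined, since positions of that build do not hold for mm9, and how gene-poor the stretch is was not measured.

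Nr2f2 itself had no peak found in both replicates. Replicate 1 listed a 500 bp peak from 77497906 to 77498405, 1.59 kb beyond the rounded lower end of the gene, and another from 77510262 to 77510761, 0.261 kb beyond its rounded start. Both stood far down the list, at places 23223 and 21858 of 28651. Replicate 2 listed a single 500 bp peak from 77506799 to 77507298, inside the rounded span of the gene, at place 1921 of 12585. The nearest peaks of the lists were thus all of the narrowest width, and the replicate 2 peak lay 2.96 kb from the closest one of replicate 1. The only other peak within 10 kb of the gene was an 833 bp peak of replicate 1 from 77490582 to 77491414, at place 14106, also without a counterpart.

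The sequence before the start of the gene is shown because the gene's own peaks lie about there, although whether one covers it is not known at this rounding. The following 250 bases end just before the start of Nr2f2, 5′ to 3′ on the gene's strand, from RefSeq promoters of GRCm38.p6, which held 1 entry for the gene.

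Nr2f2 promoter: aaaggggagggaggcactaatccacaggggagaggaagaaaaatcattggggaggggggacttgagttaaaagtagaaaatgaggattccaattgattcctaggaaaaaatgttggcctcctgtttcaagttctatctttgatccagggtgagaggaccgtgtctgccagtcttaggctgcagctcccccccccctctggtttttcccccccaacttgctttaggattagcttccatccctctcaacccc

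The letters TGGGAA, the core of the RBPJ motif, occurred on neither strand of these bases, nor did the longer GTGGGAA that contains it or the nuclear receptor half-site AGGTCA. Among the 32851 promoter entries of the same length in the table, 21.6% held TGGGAA, 5.42% GTGGGAA and 14.0% AGGTCA. No capitals appear because there was no match to mark. The sequences under the upstream peaks were not used here, for want of an mm9 genome.

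Nearly all of the shared peaks lay upstream of Nr2f2, the side that makes up most of the window. Peaks were called shared when they overlapped a peak of the other replicate by at least 1 bp. In replicate 1, 56 of the 79 peaks were shared, or 70.9% (95% Clopper-Pearson interval 59.6 to 80.6%), against 33.0% of the whole list. In replicate 2, 56 of the 67 peaks were shared, or 83.6% (72.5 to 91.5%), against 75.5% of the whole list. These intervals cover counting error only. Upstream of the gene, 74 peaks of replicate 1 and 65 of replicate 2 were listed over 1490 kb, with 55 shared in each. Shared or not, these were 49.7 peaks per Mb in replicate 1 and 43.6 in replicate 2, against 25 and 5 downstream. Downstream, over 200 kb, there were 5 peaks in replicate 1 and 1 in replicate 2, with a single shared site among them. The other 4 peaks of replicate 1 had no counterpart. The shared site ran from 77364163 to 77364792 in replicate 1, 135 kb from the gene, and was 630 bp wide, against 836 bp for its replicate 2 partner.

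**Figure D1:**
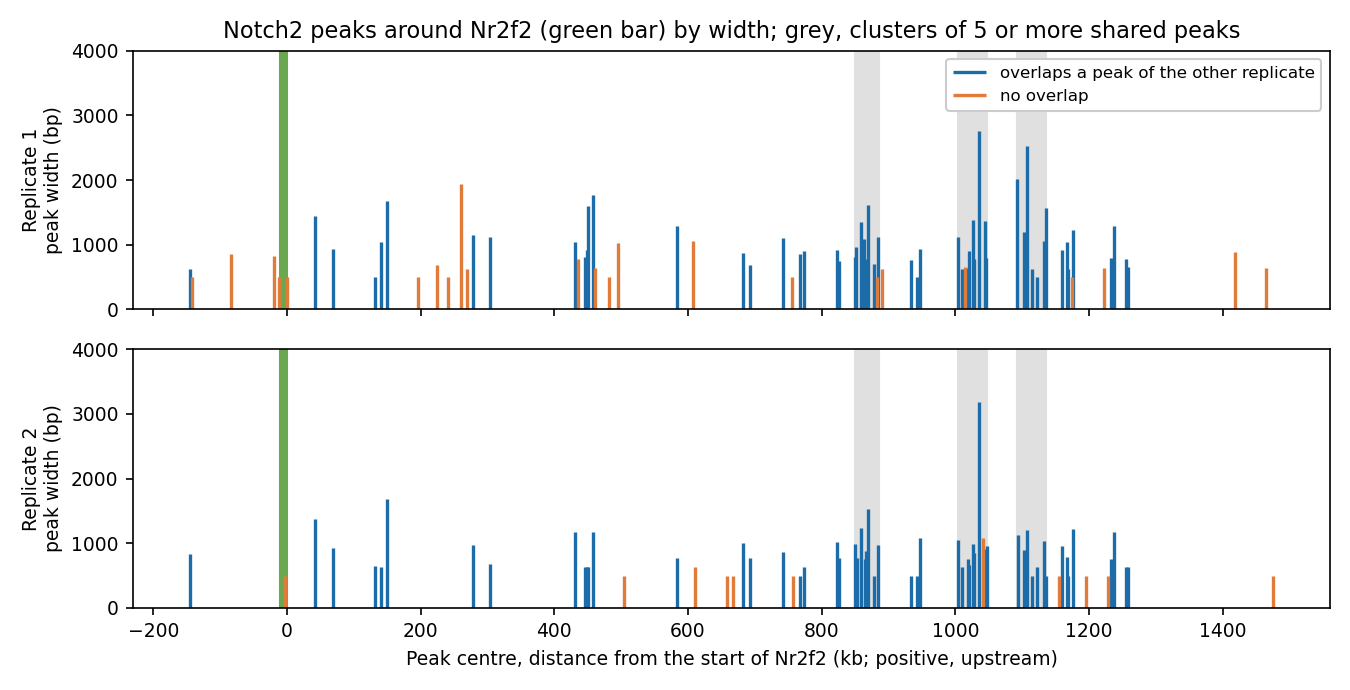
Width of every Notch2 peak (vertical lines, in bp) against the distance of its centre from the start of Nr2f2 (kb), with replicate 1 above and replicate 2 below. Blue peaks overlap a peak of the other replicate and orange ones do not; the green bar is Nr2f2 as rounded, and the grey bands are the 3 clusters of 5 or more shared peaks, which span 849 to 1136 kb upstream.

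The peaks were spread unevenly over the upstream stretch. Between 0 and 200 kb there were 5 shared sites among 7 peaks of replicate 1 and 5 of replicate 2. The nearest shared site ran from 77551980 to 77553426, 42.0 kb upstream, and was wide in both lists, with 1447 bp in replicate 1 and 1373 bp in replicate 2. It was followed at 68.3 kb by a site of 928 and 920 bp and, from 132 to 151 kb, by 3 neighbouring sites. The widest of these, from 77659385 to 77661063, had nearly the same width in the lists, 1679 bp in replicate 1 and 1678 bp in replicate 2. Between 200 and 300 kb replicate 1 listed 5 peaks and replicate 2 listed 1, and between 400 and 500 kb the numbers were 9 and 5. In no other stretch of 100 kb did the numbers lie as far apart.

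A group of 5 shared sites, among them 1 near the top of both lists, stood at 431 to 459 kb, after 126 kb without a peak of either list. The site from 77940908 to 77941957 had place 29 in replicate 1 and place 33 in replicate 2, with widths of 1050 and 1166 bp and centres 3 bp apart. Another 4 shared sites followed from 77955374 to 77969044, the widest of which was 1768 bp at place 942 in replicate 1 and 1174 bp at place 232 in replicate 2. Beyond them the shared sites were scattered, with 1 between 500 and 600 kb, 2 between 600 and 700 kb and 3 between 700 and 800 kb. Replicate 1 had no other peak between 500 and 600 kb, and replicate 2 had 1 other there.

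The stretch from 800 to 1200 kb upstream held most of the shared sites. It contained 37 peaks of replicate 1 and 36 of replicate 2, with 33 shared, or 58.9% of all shared sites of the window. Another 4 shared sites followed between 1200 and 1300 kb and none beyond. The last shared site lay 1258 kb from the gene, and the 159 kb that followed were the longest stretch of the window without a peak. Only 2 unshared peaks of replicate 1 and 1 of replicate 2 were listed beyond it.

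In this stretch lay 3 clusters of 5 or more shared peaks, formed by joining shared peaks whose edges lay within 12.5 kb. They held 24 of the 56 shared peaks, or 42.9%, whereas such clusters held 2.08% of shared peaks over all chromosomes. Of the 34 clusters of this size over all chromosomes, 3 were thus upstream of Nr2f2. Conversely 8 of the 56 shared peaks (14.3%) stood alone, against 68.4% over all chromosomes.

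The cluster closest to Nr2f2 ran from 78359366 to 78395030, 849 to 885 kb upstream, with 8 shared peaks in 35.7 kb. Replicate 1 had 9 peaks there and replicate 2 had 8, with edges of the shared peaks 1.28 to 7.66 kb apart. The shared peaks were 697 to 1612 bp wide in replicate 1, with a median of 1028 bp, and 500 to 1525 bp in replicate 2, with a median of 924 bp. The widest site, from 78378034 to 78379645, was the widest of the cluster in both lists. The first in file order was another, from 78368241 to 78369590, at place 97 in replicate 1 and place 22 in replicate 2.

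The middle cluster ran from 78513234 to 78556912, 1003 to 1047 kb upstream, and held the widest peak of the window. It had 9 shared peaks in 43.7 kb, among 10 peaks in each list, and its peaks covered 25.3% of its length in replicate 1 and 25.3% in replicate 2. Its widest site was bounded by 78543781 and 78546543 in replicate 1 and by 78543400 and 78546577 in replicate 2. It measured 2763 bp at place 66 in replicate 1 and 3178 bp at place 13 in replicate 2, and was the widest peak of the window in both lists. The other shared peaks of the cluster were no wider than 1379 bp in replicate 1 and 1049 bp in replicate 2. A 1079 bp peak of replicate 2 from 78550816 to 78551894 lay within this cluster without a counterpart, at place 1360 and 1.96 kb from the closest replicate 1 peak. It was the widest unshared peak of replicate 2 in the window.

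The cluster farthest from Nr2f2, from 78601800 to 78646254 and 1092 to 1136 kb upstream, had the earliest median place of the 3 in both lists. In replicate 2, where the closest and middle clusters began at places 22 and 13, its places ran from 36 to 5268. In replicate 1 its places ran from 65 to 26613. All 7 of its peaks in replicate 1 and all 7 in replicate 2 were shared. The median place of the shared peaks was 367 in replicate 1 and 390 in replicate 2, against 3315 and 1310 in the closest cluster and 3799 and 1662 in the middle one. Among the first 1000 peaks of their lists were 4 of the 7 in replicate 1 and 4 of the 7 in replicate 2. Its widths differed more between the lists, with a median of 1202 bp in replicate 1 and 895 bp in replicate 2. The site from 78615360 to 78617884 had 2525 bp in replicate 1 but 1205 bp in replicate 2. At its far end a site from 78644686 to 78646254 spanned 1569 bp in replicate 1 but 500 bp in replicate 2, the largest ratio of widths in the window at 3.14.

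Several shared sites far upstream of Nr2f2 stood early in both files. The shared site nearest to the gene, 42.0 kb upstream, had place 912 in replicate 1 and place 1335 in replicate 2. The order of the files is not described in the sources used here, and a place counts distinct peaks from the top. In replicate 1, 4 of the window's peaks were among the first 100 of the list and 13 of 79 among the first 1000, which make up 3.49% of that list. In replicate 2, 7 were among the first 100 and 16 of 67 among the first 1000, which make up 7.95% of that list. The 4 early sites of replicate 1, at 431, 858, 1034 and 1102 kb, were among the first 100 of replicate 2 as well. The other early peaks of replicate 2 lay at 823, 1093 and 1133 kb, and their replicate 1 partners had places 1216, 276 and 367. Over all chromosomes 58 pairs of overlapping peaks had both partners among the first 100.

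**Figure D2:**
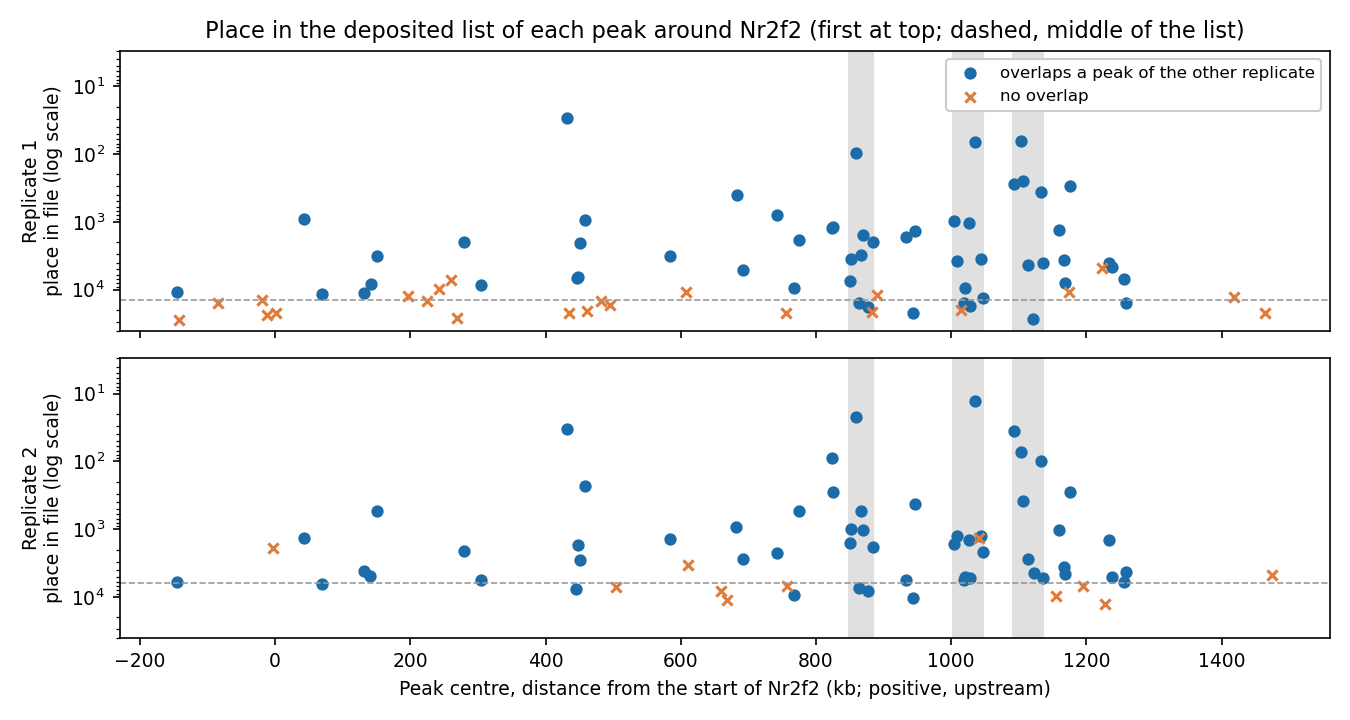
Place of each peak in its deposited list (log scale, first place at the top) against the distance of its centre from the start of Nr2f2 (kb), with replicate 1 above and replicate 2 below. Shared peaks (blue circles) reach places 29 and 13 at the top, whereas no unshared peak (orange crosses) stands among the first 1000 of either list; the dashed line is the middle of each list and the grey bands are the clusters of 5 or more shared peaks.

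Peaks found in 1 replicate only were narrower and later in the files, as they were in the whole lists. The 23 unshared peaks of replicate 1 had a median width of 636 bp and a median place of 15508, against 932 bp and 3551 for the 56 shared ones. In the whole list the medians were 630 bp for unshared and 768 bp for shared peaks. The 11 unshared peaks of replicate 2 had a median width of 500 bp, with 9 of them at 500 bp, against 842 bp for shared ones and 630 bp for shared peaks of the whole list. The widest unshared peak of replicate 1 ran from 77768756 to 77770694, 259 kb upstream, and measured 1939 bp at place 7168. It lay 17.7 kb from the closest replicate 2 peak. Within 3 kb of a peak of the other list were 8 of the 23 unshared peaks of replicate 1 and 4 of the 11 of replicate 2. These counts were not made for the whole lists, so whether such closeness is unusual is not known.

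The remaining replicate 2 peaks without a counterpart, besides the one at the gene and the 1079 bp one, lay 504 to 1474 kb upstream. One of them, from 78120220 to 78120852, measured 633 bp, and the other 8 measured 500 bp. Their places ran from 3335 to 12484 of 12585. In the stretch from 600 to 700 kb they outnumbered the shared sites, with 3 unshared peaks of replicate 2 beside 2 shared.

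In each class of width or place, a larger share of the replicate 1 peaks was shared in the window than in the whole list. The classes are broad, so that widths and places were not matched within them. Of the 40 window peaks in the first 25% of the list, 13 were among its first 1000, against 1000 of 7162 in the list. Of those 1000 peaks of the list, 933 were shared. Of its 38 peaks wider than 500 bp and up to 1000 bp in the window, 27 (71.1%) were shared, against 36.6% of the peaks of these widths in the whole list. Of the 29 wider than 1000 bp, 26 (89.7%) were shared, against 55.5%. Among the 12 peaks of 500 bp the number was 3 (25%, against 16.2%). In the first 25% of the list by place, 39 of 40 were shared (97.5%, against 69.2%), and in the next 25% 10 of 18 (55.6%, against 34.3%). The later classes had 5 of 12 (41.7%, against 18.8%) and 2 of 9 (22.2%, against 9.91%). In replicate 2 the classes departed from the list in both directions. Of its peaks wider than 500 bp and up to 1000 bp, 33 of 34 were shared (97.1%, against 85.2%), of those over 1000 bp 16 of 17 (94.1%, against 94.7%) and of the 500 bp peaks 7 of 16 (43.8%, against 63.3%). By place, 35 of 37 were shared in the first 25% of the list (94.6%, against 93.3%) and 15 of 17 in the next (88.2%, against 83.3%). In the later 25% classes 5 of 9 (55.6%, against 68.7%) and, at the end of the list, 1 of 4 (25%, against 56.7%) were shared. These differences from the lists were not tested, since sharing was known when the window was chosen.

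The peaks of the window were wide in both replicates. The median width was 857 bp in replicate 1 and 766 bp in replicate 2, against 637 and 626 bp in the whole lists. Peaks of 500 bp, the narrowest width listed, made up 15.2% of the window in replicate 1 and 23.9% in replicate 2, against 31.8% and 47.9% of the lists. Each of the 56 shared peaks of replicate 1 had 1 partner. Between the centres of partners the median distance was 77.2 bp and the largest 405 bp, with 53 of 56 within 250 bp, and the median over all 9531 overlapping pairs was 82 bp. The replicate 1 peak was the wider in 38 pairs and the replicate 2 peak in 17, and in 1 pair the widths were equal. That share of 67.9% was close to the 66.7% over all pairs, while the median ratio of widths was 1.09 against 1.25.

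**Figure D3:**
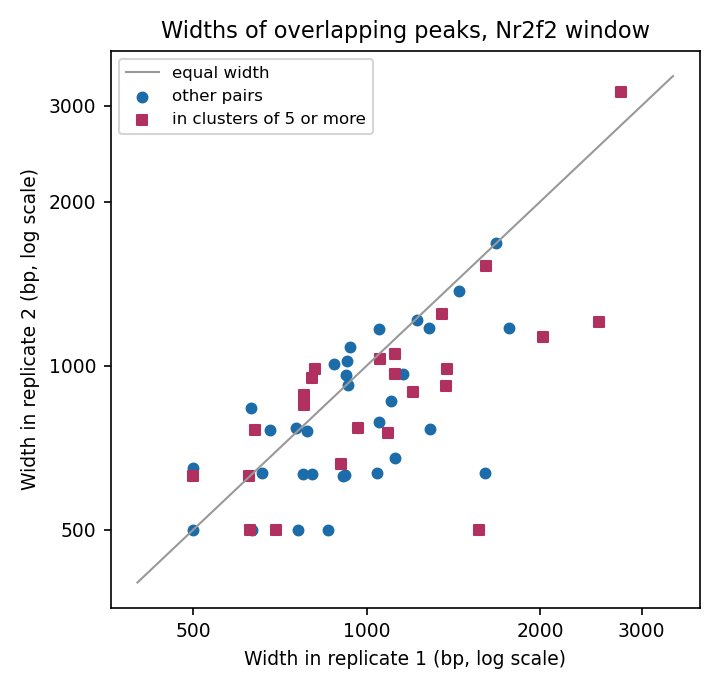
Width in replicate 2 (vertical axis) against width in replicate 1 (horizontal axis), in bp on log scales, for the 56 overlapping pairs of the Nr2f2 window, with pairs of the 3 large clusters as squares and the grey line at equal width. The widest pair, at 2763 and 3178 bp, lies above the line, and 38 of the 56 pairs, wider in replicate 1, lie below it.

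Against other stretches of the genome the window shared the highest number of shared peaks with 1 other. All chromosomes with peaks were divided into 1487 windows of 1.7 Mb, and only 2 (0.134%) held 56 or more shared peaks of replicate 1, of which the Nr2f2 window is one. The median window held 5 and the interquartile range was 2 to 9. In replicate 2 the 67 peaks of the Nr2f2 window were the most of any window, with a median of 7 and 66 in the next. In replicate 1 its 79 peaks had rank 4, with a median of 18 and a highest value of 97. The density was 46.5 peaks per Mb in replicate 1 and 39.4 in replicate 2, against 9.88 and 3.79 over chromosome 7 between its outermost peaks. The window thereby held 11.8% of the replicate 2 peaks of that chromosome and 5.36% of those of replicate 1 in 1.14% of its length. Since the window was chosen with its shared peaks known, these places among windows carry no test.

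**Figure D4:**
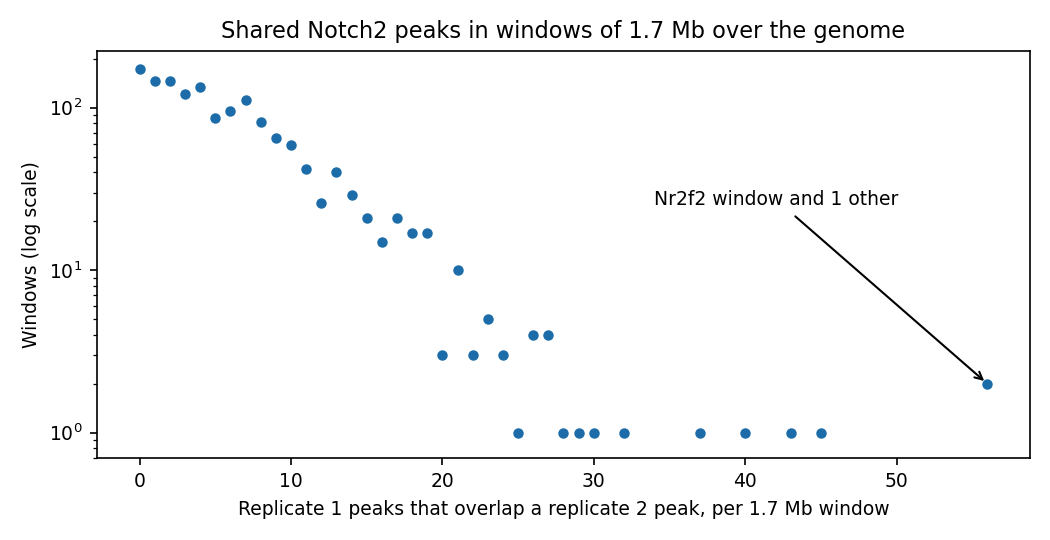
Number of windows of 1.7 Mb (log scale) that hold a given number of shared replicate 1 peaks. The Nr2f2 window and 1 other hold 56, the next holds 45, and the median is 5.

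Over the whole Nr2f2 window the numbers of peaks in the lists were more nearly equal than in most other windows. The numbers were 37 and 36 from 800 to 1200 kb upstream, and 7 and 5 from 0 to 200 kb. Replicate 1 had 1.18 peaks for each peak of replicate 2 in the window, against 2.28 over both lists. Of 656 windows with at least 20 replicate 1 peaks and any of replicate 2, 27 (4.12%, this window included) had a ratio as low or lower, and the median was 2.50. A low ratio was not particular to this window. In the 5 other windows with most shared replicate 1 peaks, named below, it was 1.19 to 1.52. By the percentage of replicate 1 peaks that were shared the window had rank 11 of 661 windows with at least 20 peaks, with a median of 31.2% and a highest value of 77.1%. By that of replicate 2 peaks it had rank 30 of 122 such windows, with 83.6% against a median of 77.2%.

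The window with as many shared peaks lay on chromosome 14 from 22100001 to 23800000, with 86 peaks in replicate 1 and 66 in replicate 2. Next came windows on chromosome 18 from 54400001 with 45 shared peaks, chromosome 12 from 79900001 with 43, chromosome 2 from 113900001 with 40 and chromosome 3 from 37400001 with 37. In these 5 windows 54.4 to 70.2% of the replicate 1 peaks were shared, against 70.9% around Nr2f2. Of their replicate 2 peaks 74.6 to 88.1% were shared, against 83.6% around Nr2f2. By that measure the windows on chromosome 14 (84.8%) and chromosome 3 (88.1%) stood above it. The windows on either side of the Nr2f2 window held fewer peaks than it did. From 75600001 to 77300000 there were 23 peaks in replicate 1 and 16 in replicate 2 with 11 shared, and from 79000001 to 80700000 there were 23 and 8 with 6 shared. The medians over all windows were 18, 7 and 5. The limits of the window fell in stretches with few peaks. The first replicate 1 peak inside it lay 64.2 kb from its lower limit and the last peak outside 86.4 kb from it, with widths of 630 and 500 bp. At the upper limit the last peak inside lay 25 kb and the first outside 81.5 kb away, with widths of 640 and 626 bp. No peak of either list crossed a limit.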

How the data were processed

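Notch2 ChIP-seq was listed as 1 file of peaks for each of 2 immunoprecipitations. The authors deposited 3 columns, chromosome, start and end in base pairs, with no score or count beside them, so that the depth is unknown. The submitters' processing notes name Bowtie, SAMtools, HOMER and mm9, without settings or roles. Positions on chromosome 7 reached 7.15 Mb past the last gene of GRCm38, and mm9 was kept. Replicate 1 had 28893 rows (242 repeats) and replicate 2 had 13065 (480 repeats), each peak being counted once. Starts are counted from 1.

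The window and the rules were chosen with earlier results of these data known. Peaks named are, in each list, those nearest to Nr2f2, the 5 widest, the 5 first in the file, those of clusters of 5 or more by range and widest member, and unshared replicate 2 peaks by range; others named were picked after their values were seen. Windows of 1.7 Mb did not overlap, were laid from the Nr2f2 window on chromosome 7 and from the first base elsewhere, lay between the outermost peaks, and took peaks by centre. Overlaps, clusters and window counts were tested on simulated data and equalled bedtools or the planted number in 10 of 10 runs. Tools were bedtools 2.31.1 and Python 3.11.15 with scipy 1.17.1, pandas 2.3.3, numpy 2.4.6 and matplotlib 3.10.9.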

Additional observations from a re-analysis of the deposited data

How the results depend on the processing

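Of 35 alternative values, 29 stayed near the reported ones, that is, within 1.5 times for counts and within the 95% interval for shares. Requiring centres within 100 bp lowered the shared peaks of the Nr2f2 window to 33, their share to 41.8% of replicate 1 and 49.3% of replicate 2, and the clusters of 5 or more to 1. The shares of the whole lists under this stricter rule are not given here. The 33.0% and 75.5% above are for an overlap of 1 bp and cannot be set beside these values. The median distance between centres was 77.2 bp in the window and 82 bp over all pairs. Joining within 5 kb left 0 such clusters, fewer by construction. Clusters made from all peaks of a single replicate numbered 4 without replicate 1 and 5 without replicate 2. The percentage of windows with at least as many peaks stayed between 0.0515% and 0.336% in every alternative run, and was 0.0672% in the upper 50% by width and in the first 50% in file order. The lowest value was 13 of 25249 windows laid every 100 kb, which overlap and count the same peaks repeatedly. The reported percentage rests on 2 of 1487 windows, so its interval is wide and staying within it says little. With 1 list per replicate, sharing has no value when a replicate is left out. No paired analysis was possible because the input had no peak list and a single group of samples remained. Depth is unknown, so a peak missing from a list does not show that its site was unbound.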

Other observations

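Some peaks of the Nr2f2 window were listed more than once in replicate 2. The widest, from 78543400 to 78546577, stood on 4 rows, and those from 77551954 to 77553326 and from 77659408 to 77661085 on 2 rows each. These 3 are 4.48% of the window's replicate 2 peaks, and repeated peaks are 3.50% of that list. All 3 were shared, as were 404 of the 440 repeated peaks of the whole replicate 2 list. Each of the 3 was among the 4 widest replicate 2 peaks of the window. Replicate 1 had no repeated peak in the window and 237 in its whole list. How the repeats arose was not tested, and with repeated rows counted replicate 2 had 72 rows in the window.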
